A study of Mus musculus with 4 samples.

Results

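The keratins of the early mouse thymus described here are Krt5, Krt7, Krt8, Krt14, Krt15, Krt17, Krt18 and Krt19, taken by name and not by a cut on their values. They are 8 of 51 keratin genes and of 27998 genes in the count matrices, and were chosen with earlier results of these data known. Keratins build the intermediate filaments of epithelial cells. A filament needs a type II (basic) keratin and a type I (acidic) keratin in equal parts: Krt5, Krt7 and Krt8 are type II, and Krt14, Krt15, Krt17, Krt18 and Krt19 are type I. In the adult thymus the Krt8 and Krt18 pair is classically used to mark the cortical epithelium and Krt5 with Krt14 the medullary epithelium, and cells with both Krt5 and Krt8 have been treated as an immature or intermediate epithelial state. Mesothelium, the flat epithelium on the outer surface of organs, carries simple keratins such as Krt7, Krt8, Krt18 and Krt19.

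Cells came from fetal thymic lobes of E13 to E13.5 embryos and were read by droplet single-cell RNA sequencing as 4 libraries, 1 for each condition. The WT carrier library held Tbx1+/+ thymuses after injection of the ethanol carrier, the Tbx1neo2/neo2 carrier library held hypoplastic thymuses after the same carrier, and the minoxidil and PGE.2 libraries held Tbx1neo2/neo2 thymuses after minoxidil or prostaglandin E2. The dams were Tbx1+/neo2 intercross females injected intraperitoneally on E8, E9 and E10, and the neo2 allele keeps a selection cassette within Tbx1 that lowers Tbx1 expression and is carried by every cell of the embryo, so that these libraries do not model a loss in thymic epithelium alone. Every comparison here is therefore of 1 library with 1 library: genotype or drug cannot be told apart from the dissection, pooling and handling of that library, no p-value is given, and intervals cover counting error only.

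The libraries held 11908, 11364, 3362 and 4471 barcodes, of which 11474, 10683, 3201 and 4152 were kept, with a median depth of 21125, 14108, 41084 and 34790 UMIs a cell in the same order. In all, 99 barcodes of 31006 stood in more than 1 library. Tbx1 itself was at 2.28, 2.33, 2.46 and 1.14 CPM (UMIs per 1e+06 UMIs) in the WT carrier, Tbx1neo2/neo2 carrier, minoxidil and PGE.2 libraries, so it was not lower in the Tbx1neo2/neo2 carrier library than in the WT carrier library and its low level does not check the genotype labels. Cells were clustered without any keratin gene and named from markers that hold no keratin: 19 of 22 clusters took a name, and the other 3, with 4022 cells, did not. The thymic epithelial cells (TECs) formed 3 classes: cTEC-like cells, with the cortical genes Psmb11, Prss16 and Ccl25 (1402, 501, 396 and 451 cells in the WT carrier, Tbx1neo2/neo2 carrier, minoxidil and PGE.2 libraries), cycling cTEC-like cells, with the same genes and Mki67 and Top2a (1327, 520, 387 and 531), and bipotent or medullary TEC-like cells, with Krtdap, Cldn4, Ccl21a and Trp63 (648, 210, 184 and 253). Mesothelial-like cells, with Upk3b, Wt1 and Msln, numbered 266, 54, 66 and 26. Krt5 lies at chr15:101707070-101712898, minus strand and Krt7 at chr15:101411043-101430313, plus strand of GRCm38, and the type I genes Krt14 (chr11:100203162-100207548, minus strand), Krt15 (chr11:100131758-100135928, minus strand), Krt17 (chr11:100256217-100261029, minus strand) and Krt19 (chr11:100140810-100148665, minus strand) lie together on chromosome 11. All libraries are named below in the order WT carrier, Tbx1neo2/neo2 carrier, minoxidil and PGE.2 wherever 4 values stand in a row.

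Levels are in CPM, the UMIs of a keratin per 1e+06 UMIs of the class in that library, with the exact Poisson 95% interval in parentheses. A UMI stands for 1 captured RNA molecule read at a single end, so levels need no scaling by transcript length, although capture can still differ between genes. Because the classes were cut from other genes of the same cells, differences between classes are descriptions of those classes and were not tested.

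Krt8 and Krt18, the pair of simple epithelia that forms the first keratin filaments of an embryo, were the main keratins of the cortical lineage. In cTEC-like cells Krt8 stood at 2367 (2350.1 to 2384) in the WT carrier, 1923 (1898 to 1948) in the Tbx1neo2/neo2 carrier, 2281 (2259 to 2303) in the minoxidil and 2309 (2286 to 2332) in the PGE.2 library. Krt18 stood at 3207 (3187 to 3226) in the WT carrier, 2287 (2259.7 to 2314) in the Tbx1neo2/neo2 carrier, 3078 (3053 to 3105) in the minoxidil and 3016 (2989.6 to 3042) in the PGE.2 library. The Tbx1neo2/neo2 carrier library was the lowest of the 4 for both genes, and the other 3 libraries lay close together. The pair made up 40.5% and 54.9% of all UMIs of the 8 keratins in WT carrier cTEC-like cells. Krt8 and Krt18 are neighbours on chromosome 15 (Krt8 at chr15:101996698-102004482, minus strand, Krt18 at chr15:102028180-102032027, plus strand, GRCm38), read away from each other, although one is type II and the other the only type I gene of the set outside the cluster on chromosome 11.

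The promoter windows of this pair and of Krt5 are shown because the pair had nearly the same pattern of levels over classes and libraries while Krt5, on the same chromosome, had another. Letters are RefSeq's on GRCm38.p6, from the 250 bases before the RefSeq start, less the 140 bases of Krt8 and 36 of Krt18 that the GENCODE gene model already covers, read 5′ to 3′ on the gene's own strand. Capitals mark the TATA-like letters ATAAAA.
Krt5 promoter, chr15:101712906-101713155, minus strand: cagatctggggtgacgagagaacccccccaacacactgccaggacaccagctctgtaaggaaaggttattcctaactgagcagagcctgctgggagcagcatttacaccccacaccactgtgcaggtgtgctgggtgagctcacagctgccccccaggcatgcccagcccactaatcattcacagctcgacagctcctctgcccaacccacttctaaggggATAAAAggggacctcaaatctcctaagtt
Krt8 promoter, chr15:102004483-102004592, minus strand: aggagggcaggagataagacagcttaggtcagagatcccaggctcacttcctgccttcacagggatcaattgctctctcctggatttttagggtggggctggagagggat
Krt18 promoter, chr15:102027966-102028179, plus strand: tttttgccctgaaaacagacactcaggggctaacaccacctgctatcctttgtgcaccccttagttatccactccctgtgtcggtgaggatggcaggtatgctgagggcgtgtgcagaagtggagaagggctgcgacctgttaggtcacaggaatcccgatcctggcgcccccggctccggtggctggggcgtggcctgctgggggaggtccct

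The Krt5 window held ATAAAA, its first letter at position -29 from the RefSeq start, as did 17.0% of 32851 RefSeq promoter windows of that length. Neither the Krt8 nor the Krt18 window held ATAAAA, the TATA box TATAAA (in 12.4% of all windows; it can overlap ATAAAA), the GC box GGGCGG (32.7%), the AP-1 site TGANTCA (6.75%) or GACGC, the core of the Foxn1 motif (22.6%), each searched on both strands over the whole window. RefSeq windows were found for 5 of the 8 keratins, and those of Krt7 and Krt14, which lie inside the GENCODE gene models, are not shown. The Krt7 window also held ATAAAA, at position -7, with 4 GC boxes and 1 GACGC, and the Krt14 window held none of these letters. Levels of Krt7 and Krt5 were unlike over classes and libraries (Pearson's r = 0.16). A match is a match of letters and no more.

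In cycling cTEC-like cells both genes stood lower than in the other cTEC-like cells. Krt8 was at 1177, 958, 1030.2 and 1294 CPM, and Krt18 at 1375, 998, 1201 and 1573. The log2 ratios of cycling to other cTEC-like cells were -1.01, -1.0, -1.15 and -0.84 for Krt8 and -1.22, -1.20, -1.36 and -0.94 for Krt18, and the ratio was past 1.5-fold with intervals apart in all 4 libraries for both. Krt5 and Krt17 were also past that limit in all 4 (-1.03, -1.18, -1.50 and -1.62 for Krt5, -1.43, -1.59, -1.78 and -1.77 for Krt17), Krt19 in none, and Krt14 was higher in the cycling cells past the limit in the Tbx1neo2/neo2 carrier and minoxidil libraries. In the Tbx1neo2/neo2 carrier library alone Krt15 also passed as higher (0.67) and Krt7 as lower (-1.08). Of all genes tested in the same comparison, 5.50%, 3.39%, 6.48% and 3.92% were lower by the same rule and 4.50%, 4.13%, 4.46% and 4.18% higher. Cycling cells were deeper, with medians of 33587, 33429, 66645 and 53877 UMIs a cell against 21906, 22722, 43281 and 36124. By the background rule given below, some levels of the cycling cells were at background. These were Krt5 in the WT carrier, Tbx1neo2/neo2 carrier and minoxidil libraries and Krt17 in the WT carrier and minoxidil libraries, so the sizes of those ratios are not read.

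Krt5, the type II keratin of basal layers, and Krt17, a type I keratin of appendages and of stressed or activated epithelium, set the bipotent or medullary TEC-like class apart from the cTEC-like cells. Krt5 stood there at 4219 (4194 to 4244) in the WT carrier, 2893 (2857 to 2929.8) in the Tbx1neo2/neo2 carrier, 4344 (4309.9 to 4378) in the minoxidil and 3829.6 (3797 to 3862) in the PGE.2 library. In cTEC-like cells it was at 122, 86.9, 114 and 125. All 4 bipotent or medullary values lay far above all 4 cTEC-like values, with log2 ratios of 5.11, 5.06, 5.25 and 4.94. Krt17 stood at 2579 (2559 to 2599) in the WT carrier, 1589.5 (1563 to 1617) in the Tbx1neo2/neo2 carrier, 1949 (1926 to 1971) in the minoxidil and 1884 (1861 to 1907) in the PGE.2 library in bipotent or medullary TEC-like cells and at 97.0, 86.1, 102 and 148 in cTEC-like cells, with log2 ratios of 4.73, 4.21, 4.25 and 3.67. The WT carrier library was the highest for Krt17 in the first class, and the PGE.2 library in the second.

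Krt8 and Krt18 stayed abundant in the class where Krt5 was high. Krt8 was at 1723, 1428, 1743 and 1430.3 and Krt18 at 2370.1, 1886, 2624 and 2092 CPM in bipotent or medullary TEC-like cells, against cTEC-like cells a log2 ratio of -0.46, -0.43, -0.39 and -0.69 for Krt8 and -0.44, -0.28, -0.23 and -0.53 for Krt18. Of these 8 ratios only that of Krt8 in the PGE.2 library passed 1.5-fold with intervals apart. The other 6 keratins were past that limit and higher in bipotent or medullary TEC-like cells in all 4 libraries, so 25 of 32 keratin ratios were called, 24 higher and 1 lower. Of all genes tested, 19.3%, 14.4%, 16.8% and 17.3% were higher by the rule and 10.2%, 6.65%, 10.9% and 9.83% lower. Without integration of the libraries, where the cTEC-like class held 1261 cells in place of 2750, the 7 Krt8 and Krt18 ratios not called here passed the limit too. The bipotent or medullary TEC-like class itself held proliferation markers. Their mean log2 level above the mean of all clusters, with Mki67 and Top2a among them, was 1.21 in this class. It was 1.97 in cycling cTEC-like and -0.42 in cTEC-like cells. Against cycling cTEC-like cells all 32 keratin ratios of the class were above 0, those of Krt8 and Krt18 included. The share of all genes above 0 in that comparison is not given, so this count is not read as a trait of keratins. Some Krt5 and Krt17 levels of the cycling cells were at background, as listed above. The part of cycling in the ratios of the bipotent or medullary TEC-like class was not tested. As a sum, the 8 keratins took 1.12, 0.806, 1.1 and 0.955% of all UMIs of the bipotent or medullary TEC-like class, 0.584, 0.443, 0.561 and 0.566% of the cTEC-like and 0.269, 0.207, 0.234 and 0.301% of the cycling cTEC-like class. Type II keratins made up 53.0, 53.8, 55.5 and 55.2% of those UMIs in the bipotent or medullary and 42.7, 45.5, 42.7 and 43.1% in the cTEC-like class, so that neither type stood far from an equal share.

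In order of level, cTEC-like cells held Krt18, Krt8, then Krt5 and Krt17, whose ranges over the libraries overlapped (86.9 to 125 and 86.1 to 148), then Krt19, Krt14, and Krt7 with Krt15, whose ranges overlapped too. Among bipotent or medullary TEC-like cells Krt5 led in every library, and the ranges of Krt18 (1886 to 2624) and Krt17 (1589.5 to 2579) overlapped, as did those of Krt17 and Krt8 (1428 to 1743). Neighbours in these orders whose ranges overlap were not told apart.

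**Figure D1:**
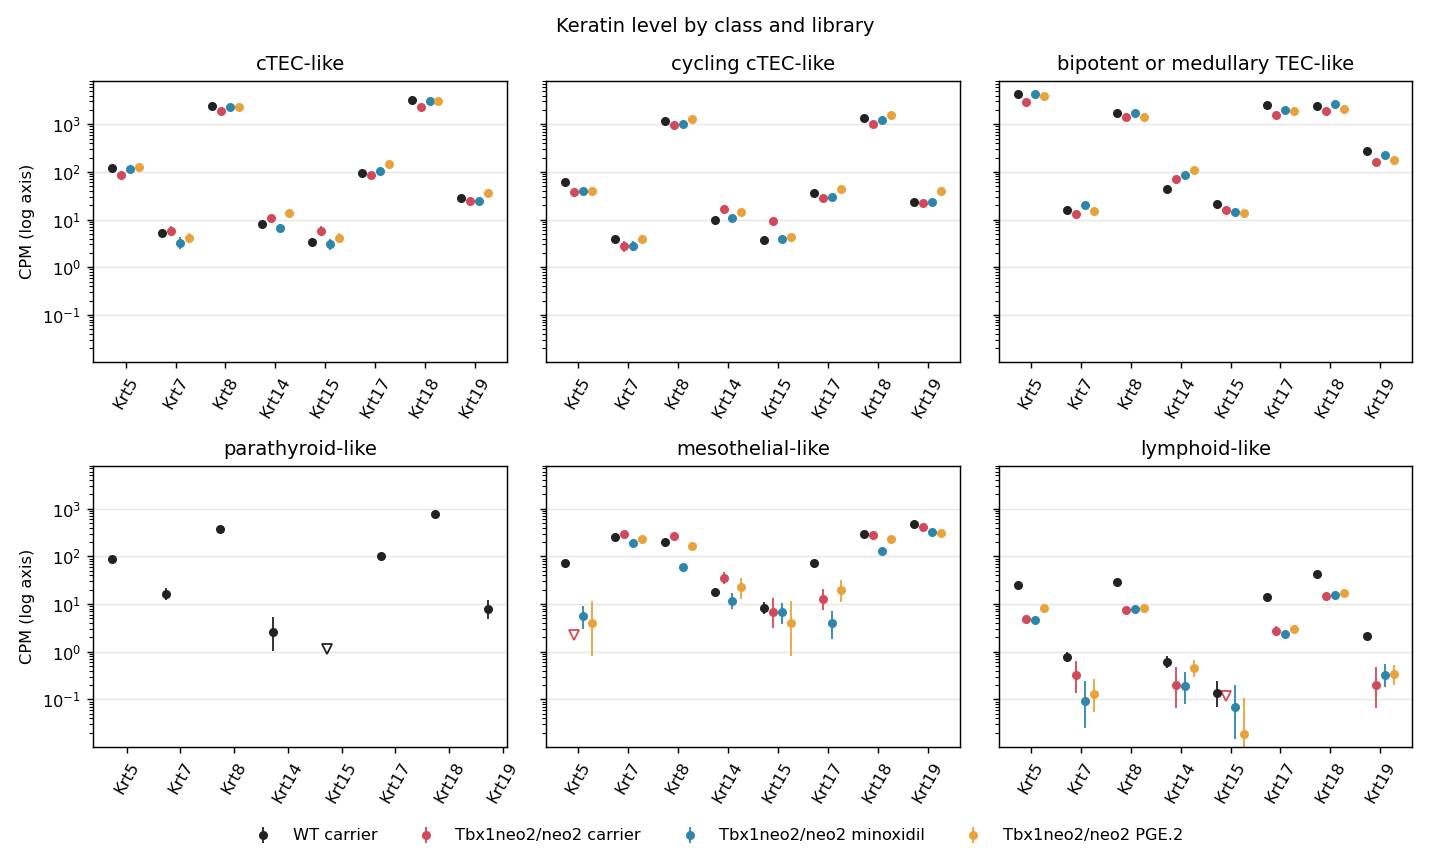
Level of each keratin (CPM of the class, log axis) in 6 classes, 1 point for each library with its 95% Poisson interval. Open triangles mark a count of 0, drawn at the level that 3 UMIs would give. Krt8 and Krt18 lead in the cTEC-like classes, Krt5, Krt17, Krt18 and Krt8 in the bipotent or medullary TEC-like class and Krt7 and Krt19 have their highest levels in mesothelial-like cells. Lymphoid-like cells are shown as a class outside epithelium. Macrophage-like and endothelial-like cells, which are not drawn, held more Krt8 and Krt18 than they did in every library.

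The remaining type I keratins of the TECs were scarcer. Krt19, the smallest keratin and one found in simple and in stem-cell-bearing epithelia, was at 268 (262 to 275) in the WT carrier, 163 (155 to 172) in the Tbx1neo2/neo2 carrier, 228 (220.2 to 236) in the minoxidil and 176 (169 to 183) in the PGE.2 library in bipotent or medullary TEC-like cells and at 28.3, 24.6, 24.01 and 35.7 in cTEC-like cells. Krt14, the usual partner of Krt5 in basal layers, was at 43.7 (41.2 to 46.4) in the WT carrier, 70.4 (64.8 to 76.3) in the Tbx1neo2/neo2 carrier, 86.5 (81.8 to 91.4) in the minoxidil and 110.2 (105 to 116) in the PGE.2 library in bipotent or medullary TEC-like cells and at 8.13, 10.7, 6.61 and 14.0 in cTEC-like cells. The order of the libraries differed between the 2 genes: Krt19 was highest and Krt14 lowest in the WT carrier library, with Krt14 intervals apart from those of all 3 mutant libraries. At these levels the bipotent or medullary class held far more Krt5 than Krt14 in every library, and Krt17 and Krt18 were the most abundant type I keratins beside it.

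Krt15, a type I keratin of basal cells, was at 20.8, 16.1, 14.2 and 14.0 CPM in bipotent or medullary TEC-like and at 3.37, 5.74, 3.02 and 4.06 in cTEC-like cells. Krt7, the type II keratin of ducts and mesothelium, was at 16.0, 13.2, 20.2 and 15.2 and at 5.28, 5.83, 3.25 and 4.18 in the same classes. A large share of the Krt15 UMIs came from few cells: in the Tbx1neo2/neo2 carrier library the 5 richest cells held 56.5% of 69 Krt15 UMIs in cTEC-like and 56.1% of 173 in cycling cTEC-like cells, and a single cell held 25 and 55 of them. A Krt15 UMI was found in 8.26%, 5.83%, 4.95% and 5.95% of bipotent or medullary TEC-like cells after thinning each cell to 5000 UMIs.

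**Figure D2:**
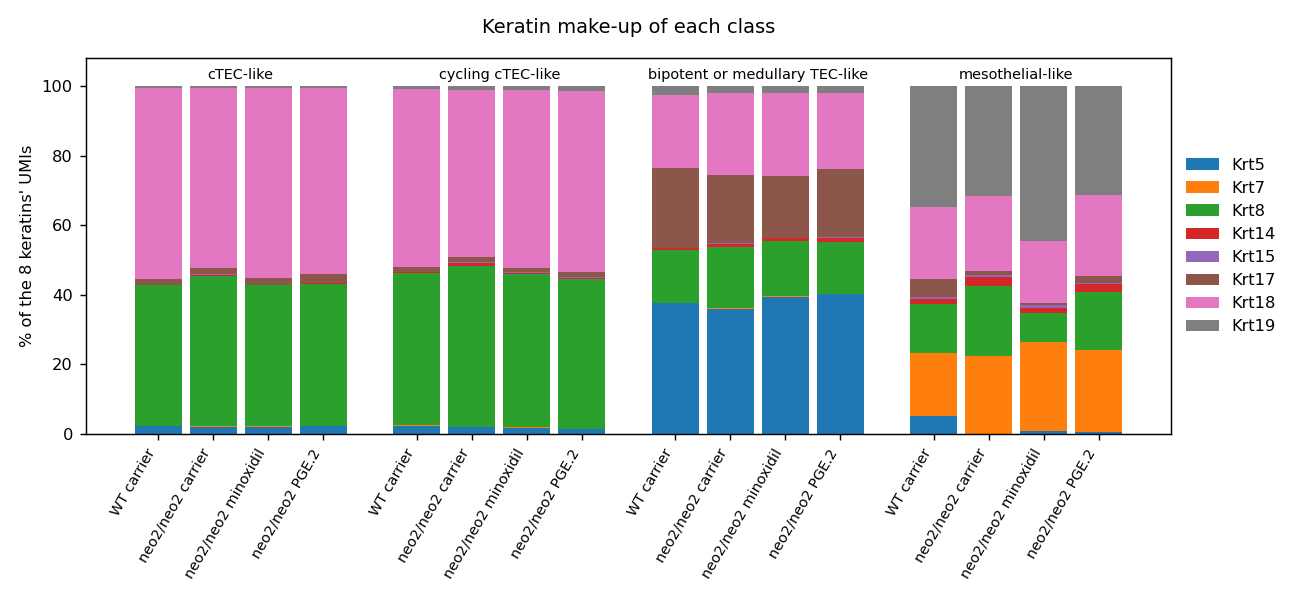
Share of each keratin among the UMIs of the 8 keratins (percent, stacked), by class and library. Krt8 and Krt18 fill most of the bar in cTEC-like and cycling cTEC-like cells, Krt5 has 35.9 to 40.1% in bipotent or medullary TEC-like cells, and Krt19 is the largest part in mesothelial-like cells.

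Mesothelial-like cells had another set of keratins, in which Krt19 was the highest and Krt7 and Krt18 came next. Krt19 was at 484 (466 to 503) in the WT carrier, 414 (379.96 to 451) in the Tbx1neo2/neo2 carrier, 324 (303 to 347) in the minoxidil and 310.2 (272 to 352) in the PGE.2 library and Krt7 at 253 (240.3 to 267) in the WT carrier, 295 (266 to 325) in the Tbx1neo2/neo2 carrier, 188 (171 to 205) in the minoxidil and 237 (203 to 274) in the PGE.2 library. The carrier libraries were the highest for both, the WT carrier for Krt19 and the Tbx1neo2/neo2 carrier for Krt7, and every value was above that of any TEC class in the same library. Against cTEC-like cells the log2 ratios were 5.59, 5.66, 5.85 and 5.82 for Krt7 and 4.10, 4.07, 3.76 and 3.12 for Krt19. Krt18 was at 290.3, 287, 131 and 233 and Krt8 at 197, 264, 59.6 and 166, with log2 ratios to cTEC-like cells of -3.47, -2.99, -4.56 and -3.70 and -3.59, -2.87, -5.26 and -3.80. The Krt8 values of the WT carrier and minoxidil libraries and the Krt18 value of the minoxidil library were not above the levels of macrophage-like or endothelial-like cells. Among all genes tested, 23.4%, 18.0%, 22.0% and 16.6% were higher by the rule in mesothelial-like than in cTEC-like cells and 21.5%, 16.3%, 22.8% and 15.2% lower.

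Against mesenchymal-like cells, which lie under the mesothelium, Krt7 was higher by log2 ratios of 9.70, 10.01, 9.90 and 9.42 and Krt19 by 7.48, 9.13, 6.22 and 6.26, and Krt8, Krt14 and Krt18 were past 1.5-fold with intervals apart in all 4 libraries too (16.0%, 10.5%, 12.7% and 9.50% of all genes tested were higher and 15.7%, 10.6%, 15.7% and 9.25% lower). After thinning, a Krt19 UMI was found in 79.8%, 71.2%, 68.3% and 72% and a Krt7 UMI in 60.8%, 59.6%, 50.8% and 52% of mesothelial-like cells. Krt5 was at 72.1 CPM in the WT carrier library, but 5 of its cells held 86.6% of those 397 UMIs, and without them it was at 9.98; in the other libraries it was at 0, 5.49 and 3.94. A count of 0 in the Tbx1neo2/neo2 carrier library allowed up to 2.3 CPM. Krt14 was at 18.0, 36.0, 11.8 and 22.3 and Krt17 at 71.5, 13.04, 3.92 and 19.7 in these cells. The 5 cells richest in Krt17 held 74.6, 88.2, 100 and 86.7% of its UMIs, and those richest in Krt14 24.2, 61.7, 66.7 and 82.4%.

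Parathyroid-like cells, with Pth, Chga, Gcm2 and Casr, numbered 86 in the WT carrier and 1 in the PGE.2 library, and values are of the former. Their main keratins were those of a simple epithelium: Krt18 was at 759 (726 to 793) and Krt8 at 369 (347 to 393) CPM, with Krt17 at 101 (89.5 to 114) and Krt5 at 86.6 (75.7 to 98.5), the last not above the 88.2 CPM of macrophage-like cells. The parathyroid and the thymus come from the same pharyngeal pouch, and no other library held enough such cells for a value.

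Keratin UMIs were also counted in 5 classes of other lineages, and a level at or below the highest of theirs in the same library was read as background. In lymphoid-like cells Krt18 was at 42.7, 15.0, 15.2 and 16.9 CPM, Krt8 at 28.9, 7.38, 8.04 and 8.17 and Krt5 at 24.6, 4.89, 4.63 and 8.4. The WT carrier library was the highest for all 3, and the other 3 libraries lay below it. As a percent of the highest class of the same library, Krt5 in lymphoid-like, erythroid-like and mesenchymal-like cells came to 0.0706 to 0.583%. Macrophage-like cells held more, with Krt8 at 219, 108, 112 and 70.0, Krt18 at 256, 119, 128 and 62.1, Krt5 at 88.2, 40.6, 8.97 and 25.8 and Krt17 at 63.6, 21.7, 1.42 and 5.06. So did endothelial-like cells, with Krt8 at 109, 69.8, 133 and 12.7, Krt18 at 136, 81.4, 234 and 18.6, Krt5 at 54.4, 2.95, 112 and 1.62 and Krt17 at 28.1, 1.09, 67.9 and 2.16. Few cells held most of this: 5 macrophage-like cells had 89.8% of the Krt5 UMIs of their class in the WT carrier library, and 5 endothelial-like cells 91.5% in the minoxidil library. Levels of Krt5 and Krt17 in cTEC-like cells were above those of all 5 classes in every library, but for Krt5 in the minoxidil library by little (114 against 112). In cycling cTEC-like cells Krt5 in the WT carrier, Tbx1neo2/neo2 carrier and minoxidil libraries and Krt17 in the WT carrier and minoxidil libraries were at background by this rule. So were, in mesothelial-like cells, Krt5 in all 4 libraries, Krt8 in the WT carrier and minoxidil, Krt17 in the Tbx1neo2/neo2 carrier and minoxidil and Krt18 in the minoxidil library, and, in parathyroid-like cells, Krt5, Krt14, Krt15 and Krt19. Ratios between libraries with such a level on either side are given as values, and no change is read from them. Krt7 and Krt15 in cTEC-like cells, at 3.25 to 5.83 and 3.02 to 5.74 CPM, were above those classes but rested on few molecules.

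Whether single cells held both the cortical and the medullary keratins was read from cells thinned to 5000 UMIs, with exact binomial 95% intervals. Krt8 was found in 96.1%, 94.7%, 97.3% and 97.2% of bipotent or medullary TEC-like cells and Krt5 in 91.7%, 87.4%, 92.9% and 90.5%. Both were found in 90.3% (87.8 to 92.5) of WT carrier, 85.4% (79.9 to 90.0) of Tbx1neo2/neo2 carrier, 91.2% (86.1 to 94.9) of minoxidil and 88.9% (84.3 to 92.5) of PGE.2 cells of this class. The product of the 2 single shares was 88.2%, 82.7%, 90.3% and 88.0%, so the joint share lay little above what the single shares give. The Tbx1neo2/neo2 carrier library was the lowest, and its interval overlapped those of the others. Without thinning the joint share was 95.4%, 92.4%, 94.6% and 96.4%. The double-positive state was thus held by most cells of the class at this depth, by RNA.

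In cTEC-like cells a Krt5 UMI was found in 23.9%, 18.8%, 20.5% and 20.1%, and nearly all of these cells held Krt8 as well, with both in 23.9%, 18.8%, 20.3% and 20.1%. In cycling cTEC-like cells both were found in 15.3%, 11.7%, 14.0% and 13.8%. The share with both in lymphoid-like cells, which should hold neither, was 1.62%, 0.13%, 0% and 0.923%. Krt8 was scarce there too, so this joint share does not give the share of cTEC-like cells that free RNA could mark with Krt5. In the minoxidil library the Krt5 level of cTEC-like cells, 114 CPM, was little above the 112 CPM of endothelial-like cells. The median depth before thinning was 21906, 22722, 43281 and 36124 UMIs in cTEC-like against 36719, 30809, 66043 and 48343 in lymphoid-like cells. Krt5 and Krt17 met in the same cTEC-like cells more often than their single shares would give: 10.1%, 7.86%, 9.37% and 8.82% held both against products of 4.998%, 3.59%, 3.84% and 4.65%. The Krt5 UMIs of the cTEC-like class were uneven over cells, with a variance 6.65, 3.71, 6.16 and 7.53 times the mean, while the 90th percentile was 2 Krt5 UMIs after thinning in every library.

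**Figure D3:**
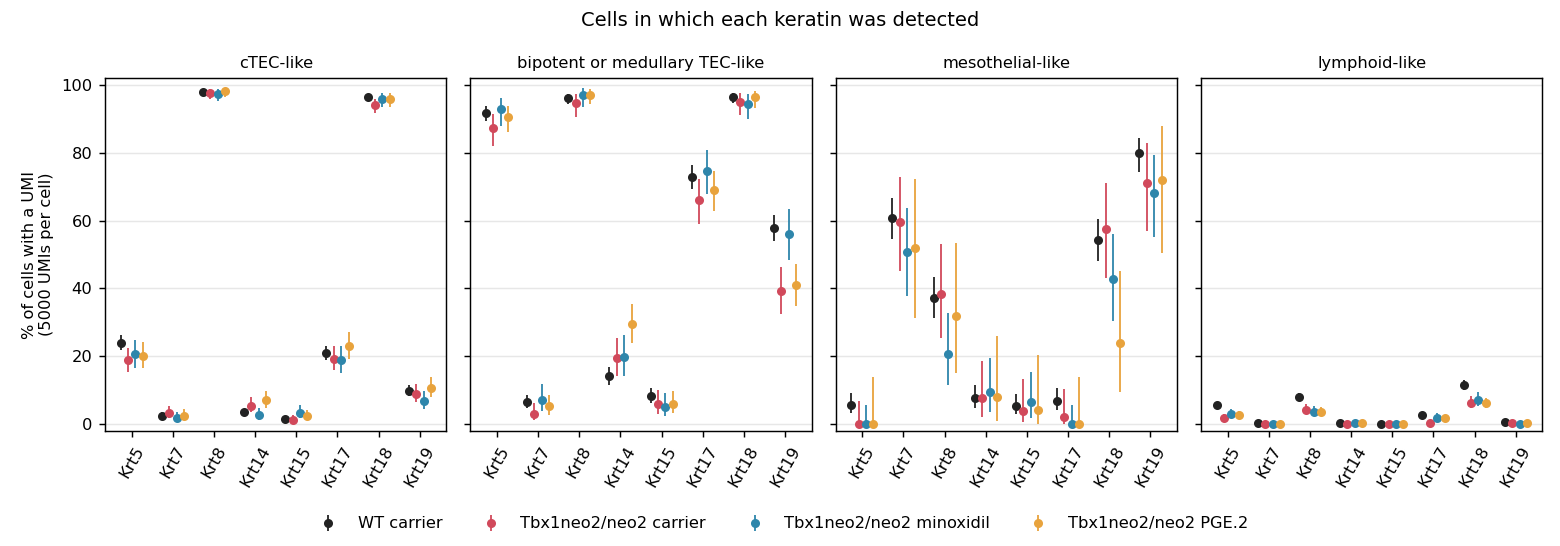
Percent of cells with at least 1 UMI of each keratin after thinning each cell to 5000 UMIs, for 4 classes and 4 libraries, with exact binomial 95% intervals. Krt8 and Krt18 are found in nearly every cTEC-like and bipotent or medullary TEC-like cell, Krt5 in most of the latter, and Krt19 in more of the WT carrier and minoxidil than of the other bipotent or medullary TEC-like cells.

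The number of the 8 keratins found in a thinned cell had a mean of 4.44, 4.11, 4.47 and 4.35 in bipotent or medullary TEC-like, 2.56, 2.49, 2.47 and 2.6 in cTEC-like and 2.28, 2.22, 2.25 and 2.42 in cycling cTEC-like cells, against 0.286, 0.129, 0.154 and 0.146 in lymphoid-like cells. Exactly 2 keratins were found in 54.4, 56.2, 56.7 and 52.9% of cTEC-like cells. In bipotent or medullary TEC-like cells 6 keratins were found in 13.7, 4.85, 12.6 and 12.7%, the Tbx1neo2/neo2 carrier library being the lowest. No thinned cell of these 3 classes held all 8.

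Of the keratins in the bipotent or medullary class, Krt17 had the highest ratio of variance to mean over thinned cells in every library. The ratio was 30.1, 18.8, 19.2 and 18.3, against 9.59, 9.14, 9.24 and 12.3 for Krt5 and 8.52, 6.41, 7.06 and 5.19 for Krt8. Because this ratio can rise with level, it does not rank Krt17 against scarce keratins such as Krt14 and Krt15 for unevenness. The median of Krt17 was 6, 3, 4 and 3 UMIs a cell with a 90th percentile of 37, 24.5, 30.9 and 26.9. Cells with Krt17 held 2.9, 3.87, 3.2 and 2.79 times as many Krt5 UMIs a cell as cells without it, and 2.33, 1.98, 2.46 and 1.46 times as many of Krt8, which gives a difference in the sum of keratin UMIs and not in Krt17 alone. A Krt19 UMI was found in 57.8% (53.9 to 61.6) of WT carrier, 39.3% (32.6 to 46.3) of Tbx1neo2/neo2 carrier, 56.0% (48.5 to 63.4) of minoxidil and 40.9% (34.7 to 47.2) of PGE.2 cells of this class, the WT carrier and minoxidil intervals lying above those of the other 2 libraries. Krt14, found in 14.0%, 19.4%, 19.8% and 29.4% of the class, stood with Krt17: 88.9%, 82.5%, 97.2% and 97.3% of cells with Krt14 held Krt17, against 70.3%, 62.0%, 69.2% and 57.3% of cells without. Krt19 did not follow Krt14 in this way: 61.1%, 30%, 41.7% and 33.8% of cells with Krt14 held Krt19 against 57.2%, 41.6%, 59.6% and 43.8% of cells without, higher in the WT carrier and lower in the 3 mutant libraries. The number of cells with Krt14 was 90, 40, 36 and 74.

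Cut more finely, the cTEC-like class split into a larger part and a part of 217, 68, 68 and 58 cells, although no keratin was used to cluster. The 2 parts differed in cycling too. The mean log2 level of the proliferation markers above the mean of all clusters was -1.51 in the smaller and -0.04 in the larger part. By the same measure the cTEC markers stood at 3.07 in the smaller and 2.45 in the larger part. Median depths were 20333 and 26082 UMIs a cell. The part of cycling in the keratin differences was not tested. In the smaller part Krt8 was at 4650.3, 3899, 4279 and 4676 and Krt18 at 6846, 5406, 6258 and 6879 CPM, and in the larger at 1961, 1627, 1948 and 1951 and 2558, 1838, 2544 and 2446. The split was the same way round in all 4 libraries for both genes, and the Tbx1neo2/neo2 carrier library was the lowest in both parts. Krt5 was also higher in the smaller part, at 224, 177, 233 and 264 against 102, 72.2, 93.7 and 102, as was Krt17, at 194, 178, 236 and 299.5 against 79.2, 71.2, 79.6 and 123. The Krt5 level of the larger part in the minoxidil library, 93.7, was below the 112 CPM of endothelial-like cells there. It was thus at background, and the size of that difference is not read. Krt19 went the other way in all 4 libraries, at 10.7, 4.53, 7.8 and 12.3 against 30.3, 26.4, 26.6 and 38.5. Krt7, Krt14 and Krt15 had 0 to 36 UMIs in the smaller part of a library.

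Between the carrier libraries, Tbx1neo2/neo2 against WT, the keratins of the TECs differed little in kind and were mostly lower in amount. Of 24 ratios (8 keratins in 3 TEC classes), 18 were below 0 and 6 above, and 7 were past 1.5-fold with intervals apart, 4 higher and 3 lower. Of all genes tested, 3.06% in cTEC-like, 3.55% in cycling cTEC-like and 3.40% in bipotent or medullary TEC-like cells were higher by that rule, and 2.01% in cTEC-like, 1.71% in cycling cTEC-like and 3.84% in bipotent or medullary TEC-like cells lower. The median log2 ratio of the 8 was -0.19, -0.31 and -0.35 in the 3 classes, beside -0.05, -0.05 and -0.06 over all genes tested.

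The most abundant keratins were lower in the Tbx1neo2/neo2 carrier library in every TEC class. Log2 ratios in cTEC-like, cycling cTEC-like and bipotent or medullary TEC-like cells were -0.30, -0.30 and -0.27 for Krt8, -0.49, -0.46 and -0.33 for Krt18 and -0.50, -0.65 and -0.54 for Krt5. Of these 9 only Krt5 in cycling cTEC-like cells passed 1.5-fold, where both of its levels were at background, and Krt5 in cTEC-like cells passed without the 5 richest cells (-0.62). The counting intervals of all 9 excluded 0. In bipotent or medullary TEC-like cells Krt17 differed by -0.70 (95% interval -0.73 to -0.67) and Krt19 by -0.72 (95% interval -0.80 to -0.63) on the log2 scale, and both passed the limit as lower. Krt14 went the other way in all 3 classes, with 0.40 (95% interval 0.09 to 0.71), 0.71 (95% interval 0.50 to 0.92) and 0.69 (95% interval 0.54 to 0.83), and passed the limit in the last 2. With the 5 cells richest in Krt14 left out of each library, the cycling cTEC-like ratio was 0.49 and no longer passed, and the bipotent or medullary ratio was 0.65. Krt15 passed as higher in cTEC-like (0.77) and cycling cTEC-like cells (1.29), but without the 5 richest cells the ratios were -0.24 and 0.23 and neither passed. The Krt15 ratio of bipotent or medullary TEC-like cells was -0.37, and without the 5 richest cells -0.93 and past the limit as lower.

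Markers of other cell types moved with this comparison. The 6 mesenchymal markers (Pdgfra, Pdgfrb, Col1a2, Col3a1, Dcn and Postn) summed to 69.4, 347, 42.7 and 22.8 CPM in cTEC-like, 42.8, 311, 26.0 and 12.7 in cycling cTEC-like and 243, 564, 35.7 and 123 in bipotent or medullary TEC-like cells, and none of the 6 was at 0 in any library. The Tbx1neo2/neo2 carrier library was the highest in all 3 classes. The 6 erythroid markers summed to 692, 5356, 124 and 2319.7 in cTEC-like cells, and the median share of mitochondrial UMIs was 4.85, 5.38, 4.53 and 5.04% there and 4.87, 5.42, 4.28 and 4.96% in bipotent or medullary TEC-like cells, again highest in the Tbx1neo2/neo2 carrier library. The 5 epithelial markers, Epcam, Cdh1, Foxn1, Esrp1 and Cldn6, summed to 1014, 935, 994 and 1028 in cTEC-like and 1368, 1033, 1176 and 1259 in bipotent or medullary TEC-like cells. Their part in the keratin ratios was not tested, here or in the 2 comparisons that follow, which use the same carrier library.

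Minoxidil was compared with the Tbx1neo2/neo2 carrier library, which the comparison with WT and that with PGE.2 also use, so that the 3 are not independent. Of 24 ratios, 2 passed as higher and 5 as lower, where 3.16% in cTEC-like, 2.38% in cycling cTEC-like and 3.75% in bipotent or medullary TEC-like cells of all genes tested were higher and 3.25% in cTEC-like, 4.18% in cycling cTEC-like and 4.22% in bipotent or medullary TEC-like cells lower. In bipotent or medullary TEC-like cells Krt5 was higher, at 4344 against 2893 CPM and a log2 ratio of 0.59 (95% interval 0.56 to 0.61), which is just past the limit, and 0.55 and not past it without the 5 richest cells. Krt7 was higher there by 0.61 (95% interval 0.29 to 0.94), at 295 against 111 UMIs. Krt8 and Krt18 ratios were 0.25 and 0.43 in cTEC-like, 0.10 and 0.27 in cycling cTEC-like and 0.29 and 0.48 in bipotent or medullary TEC-like cells, all above 0 and all within 1.5-fold. The ratios that passed as lower were those of scarce keratins in the cTEC-like classes: Krt7 (-0.84), Krt14 (-0.70) and Krt15 (-0.93) in cTEC-like and Krt14 (-0.60) and Krt15 (-1.24) in cycling cTEC-like cells. Of these 5 only Krt14 in cTEC-like cells still passed without the 5 richest cells (-0.72).

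PGE.2 against the same carrier library gave 5 ratios past the limit as higher and 1 as lower of 24, where 2.36% in cTEC-like, 2.45% in cycling cTEC-like and 3.42% in bipotent or medullary TEC-like cells of all genes tested were higher and 4.31% in cTEC-like, 4.95% in cycling cTEC-like and 4.63% in bipotent or medullary TEC-like cells lower. Krt17 in cTEC-like cells was at 148 against 86.1 CPM, a log2 ratio of 0.78 (95% interval 0.67 to 0.88), and Krt19 differed by 0.54 there, or by 0.66 and past the limit as higher without the 5 richest cells. In cycling cTEC-like cells the log2 ratios of Krt17, Krt18 and Krt19 were 0.60, 0.66 and 0.85, all past the limit as higher. Krt15 was lower there with a log2 ratio of -1.12 (95% interval -1.47 to -0.78), but at -0.28 without the 5 richest cells it was not past the limit. In bipotent or medullary TEC-like cells Krt14 was higher, with 0.65 (95% interval 0.51 to 0.79), and Krt5 differed by 0.40 (95% interval 0.38 to 0.43) and Krt17 by 0.25 (95% interval 0.21 to 0.28), both within 1.5-fold. Krt14 thus stood at 110.2 CPM in the PGE.2 library, the highest of the 4, and at 43.7 in the WT carrier library, the lowest, and the share of cells with a Krt14 UMI after thinning was 14.0% (11.4 to 16.9) of WT carrier, 19.4% (14.2 to 25.5) of Tbx1neo2/neo2 carrier, 19.8% (14.3 to 26.3) of minoxidil and 29.4% (23.8 to 35.4) of PGE.2 cells. Whether the 2 drugs differ from each other was not tested.

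**Figure D4:**
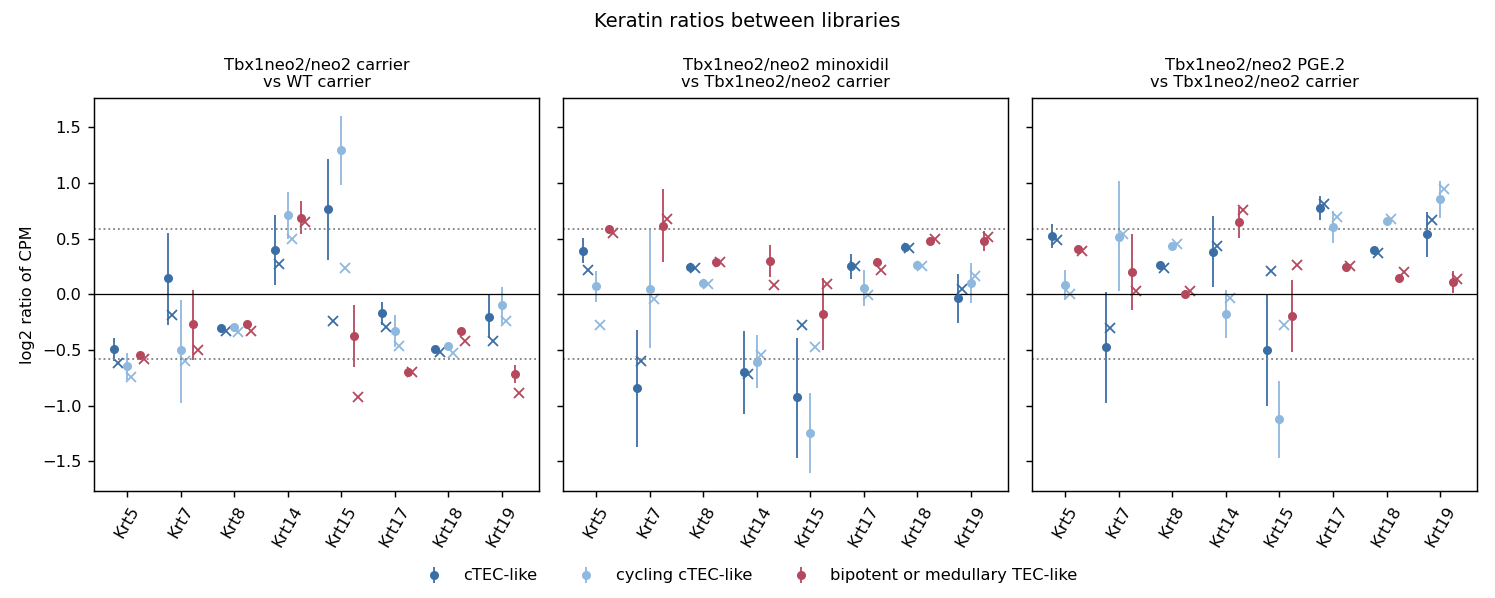
Log2 ratio of the level of each keratin between libraries for the 3 TEC classes. Circles with bars give the ratio and its 95% counting interval, crosses the ratio without the 5 cells richest in that keratin, and dotted lines 1.5-fold. In the comparison with WT the abundant keratins Krt5, Krt8 and Krt18 lie below 0 in all 3 classes, and the Krt15 circles lie far from their crosses.

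In mesothelial-like cells the same comparisons rested on 266, 54, 66 and 26 cells, and 5 cells made up a large part of some values. Krt7, Krt8, Krt18 and Krt19 were within 1.5-fold between the carrier libraries, with log2 ratios of 0.22, 0.42, -0.02 and -0.23, but without the 5 richest cells Krt18 passed as lower (-0.69). Krt14 passed as higher in the Tbx1neo2/neo2 carrier library (1.0, but 0.24 and not past the limit without the 5 richest cells), and Krt5 and Krt17 passed as lower, with 0 and 17 UMIs left, both from or to a level at background. Of all genes tested in these cells, 2.85% were higher and 2.70% lower. The Krt8 log2 ratio of the minoxidil to the Tbx1neo2/neo2 carrier library was -2.15 (95% interval -2.43 to -1.87), and -1.47 without the 5 richest cells, but the minoxidil level of 59.6 CPM was at background and no fall is read from it. Krt18 differed by -1.14 (95% interval -1.35 to -0.92), but by -0.13 and not past the limit without them, and its minoxidil level was at background too. Krt7, Krt14 and Krt17 also passed as lower, on 479, 30 and 10 UMIs, and none of the 8 as higher, where 2.97% of all genes were lower and 2.46% higher. Without the 5 richest cells Krt7 (-0.68) and Krt14 (-1.85) still passed, and Krt17 did not, with 0 and 2 UMIs left. In the PGE.2 library Krt8 alone passed, as lower, with -0.67 (95% interval -0.98 to -0.37) where 1.38% of all genes were lower and 1.57% higher, and without the 5 richest of its 26 cells Krt7, Krt18 and Krt19 passed as lower as well (-0.67, -1.24 and -0.70). A Krt8 UMI was found in 37.3%, 38.5%, 20.6% and 32% of thinned mesothelial-like cells. The 6 erythroid markers summed to 122, 156, 115 and 11970 CPM and the 5 epithelial markers to 71.0, 46.8, 12.6 and 25.0 in this class, and their part in these ratios was not tested.

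Over 36 groups (a class in a library, with at least 50 cells), Pearson's r of log2 levels was highest for Krt8 with Krt18 (0.996), Krt5 with Krt17 (0.99) and Krt14 with Krt15 (0.95). Krt19 was close to Krt15 (0.88), Krt14 (0.86) and Krt7 (0.85), and Krt7 to no keratin but Krt19 (at most 0.54 with the others). These r values describe groups that share libraries and carry no p-value. Krt14, the textbook partner of Krt5, had r = 0.82 with Krt5. Among 5916 other genes, those most like Krt8 were Pax1 (r = 0.97), Prss16 (r = 0.97), Dsp (r = 0.97), that is the transcription factor gene Pax1 of the pouch endoderm, a protease gene of cTECs and the desmosomal plaque gene desmoplakin. Those most like Krt18 were Dsp (r = 0.97), Pax1 (r = 0.97), Wfdc2 (r = 0.96), most like Krt5 S100a14 (r = 0.96), Krtdap (r = 0.96), 1700024P16Rik (r = 0.95) and most like Krt17 S100a14 (r = 0.97), Gm16136 (r = 0.95), 1700024P16Rik (r = 0.95). Those most like Krt7 were Tm4sf5 (r = 0.96), Myl7 (r = 0.95), Upk1b (r = 0.94), with Upk1b a mesothelial marker, and most like Krt19 Smtnl2 (r = 0.93), Acot1 (r = 0.90), Hspb1 (r = 0.87). Krt14 and Krt15 had the same 3 genes, Emp2, Rgs4 and Clu. Prss16, Krtdap and Upk1b were among the markers that named the classes, so their r values over these classes are not independent of the naming.

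Of the other 43 keratin genes listed, 1 reached 50 CPM in any class with enough cells, 2 had no UMI and 17 had fewer than 20 in all. Krt10, the type I keratin of differentiating epidermis, was at 45.5, 44.8, 39.6 and 39.0 in cTEC-like cells and at 37.0, 37.5, 33.5 and 31.6 in bipotent or medullary TEC-like cells. Its highest level, 54.7 CPM, was in parathyroid-like cells of the WT carrier library. The background rule above was not applied to Krt10, so these levels do not show that it is particular to epithelium. Krt6a and Krt16, a pair of appendage and wound keratins, were at 40.2, 20.1, 40.9 and 26.2 and 36.9, 21.7, 26.1 and 35.1 in bipotent or medullary TEC-like cells and at most 0.499 in cTEC-like cells. Other keratins with enough UMIs were higher in bipotent or medullary than in cTEC-like cells in 11 of 16, 5 of 8, 6 of 9 and 7 of 9 cases, where 14.4 to 19.3% of all genes were higher, and lower in none.

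Keratin filaments end in desmosomes and hemidesmosomes, and 16 genes of these junctions were read beside them. Desmoplakin (Dsp), which ties keratins to the desmosome, was the most abundant, at 869.9, 584, 777 and 691 CPM in bipotent or medullary TEC-like and 332, 254, 317 and 356 in cTEC-like cells. The Tbx1neo2/neo2 carrier library was the lowest in both classes. In bipotent or medullary against cTEC-like cells, 9, 10, 10 and 10 of the 16 junction genes were higher and 2, 1, 3 and 2 lower, where 14.4 to 19.3% of all genes were higher. Between the carrier libraries, 4 of 16 were lower in Tbx1neo2/neo2 bipotent or medullary TEC-like cells and 0 higher, with a median log2 ratio of -0.29 beside -0.06 over all genes, of which 3.84% were lower and 3.40% higher. With at least 20 UMIs, 1 of 15 was lower and 0 higher in cTEC-like cells, and 0 of 15 lower and 0 higher in cycling cTEC-like cells. Against that library, 3 of 16 were higher and 0 lower in bipotent or medullary TEC-like cells with minoxidil, with a median log2 ratio of 0.39 beside 0.01 over all genes, of which 3.75% were higher and 4.22% lower. With PGE.2, 1 was higher and 0 lower, with a median of 0.18 beside -0.01 over all genes, of which 3.42% were higher and 4.63% lower. In cTEC-like and cycling cTEC-like cells 2 and 0 were higher with minoxidil and 1 and 1 with PGE.2, where 3.16, 2.38, 2.36 and 2.45% of all genes were, and none was lower. The desmosomal cadherin genes Dsg2 and Dsc2 were at 87.1, 101, 152 and 142 and 101, 59.9, 102 and 73.9 in bipotent or medullary TEC-like cells.

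Vimentin (Vim), the intermediate filament gene of mesenchyme, was at 291, 314, 318 and 297 CPM in bipotent or medullary TEC-like and at 47.9, 98.2, 44.4 and 34.5 in cTEC-like cells, the Tbx1neo2/neo2 carrier library being the highest of the latter. Of the other intermediate filament genes, Lmnb1, a lamin of the nuclear envelope, was at 200.4, 206, 199.9 and 224 CPM in cTEC-like and 211, 190.1, 187 and 217 in bipotent or medullary TEC-like cells, and Nefm, a neurofilament gene of neurons, at 259, 280.3, 276 and 329.7 and 91.1, 118, 85.1 and 114. Of the 12 such genes listed, 0 was higher and 0 lower of the 9 tested in Tbx1neo2/neo2 against WT carrier bipotent or medullary TEC-like cells, 1 and 1 of 9 with minoxidil and 0 and 0 of 9 with PGE.2. In cTEC-like cells the counts were 2 higher and 0 lower of 10, 0 and 3 of 9 and 0 and 2 of 9 in the same comparisons. In cycling cTEC-like cells they were 2 higher and 1 lower, 0 and 2, and 1 and 3, each of 9. The shares of all genes in these classes are given above.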

How the data were processed

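Single-cell RNA libraries (1 a condition) were aligned by the authors to mm10 with Cell Ranger 5.0.1 per the labels, which also name Seurat, and the deposited matrices hold whole-number UMI counts per gene and barcode. The 8 keratins, the gene lists and the comparisons were chosen with earlier results of these data known. A barcode was kept if it held 200 genes or more and if no more than 10% of its UMIs were mitochondrial. Seurat 5.3.0 in R 4.3.3 integrated the libraries by anchors (2000 genes, 30 dimensions) and clustered them at resolution 0.3, after all keratin genes (16 of the variable genes), Xist and Y-linked genes were left out. A cluster took the class whose markers were highest above the other clusters, by a rule set after the clusters were seen. In each class UMI counts were added up over cells and divided by the class total (CPM), with exact Poisson intervals (SciPy 1.17.1), and ratios between libraries have conditional exact intervals. A ratio was called past 1.5-fold with 95% intervals apart and at least 20 UMIs in both libraries together, over all genes by the same rule. A count of 0 was bounded by 3 counts. Shares of cells used cells thinned to 5000 UMIs, shallower cells left out, with Clopper-Pearson intervals. Genes named beyond the members were the 3 most like each keratin of the junction and other filament lists the 3 highest in the TECs, and Krt10, the only other keratin to reach 50 CPM. Krt6a and Krt16 were added after their values were seen. Doublets were left in. Scrublet's own threshold (Scanpy 1.11.5) marked 645, 0, 51 and 72 cells, so that it did not work in the Tbx1neo2/neo2 carrier library, and an alternative left out the 1093, 971, 86 and 149 cells of highest score. The scripts were tested on simulated counts.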

Additional observations from a re-analysis of the deposited data

Results flagged for a closer look

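Krt7 went opposite ways in the minoxidil library against the Tbx1neo2/neo2 carrier library: its log2 ratio was -0.84 in cTEC-like cells and 0.61 in bipotent or medullary TEC-like cells, both past 1.5-fold with intervals apart, on 57 and 70 UMIs in the first and 295 and 111 in the second class. The difference between the classes was not tested, and without the 5 richest cells the cTEC-like ratio was -0.60 and no longer past the limit. The 3 clusters that took no name also held keratin UMIs: the 8 keratins summed to 1745 CPM in cluster 6, 2385 in cluster 7 and 2302 in cluster 19, over all libraries. Genes of other cell types led the first of these (Gzma and Pth) and the second (the hemoglobin genes and Mylpf), and cTEC genes (Prss16, Ccl25) led the last. These clusters held 11.4, 4.94, 3.04 and 4.5% of the Krt8 UMIs of the 4 libraries and stand in no comparison above.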

How the results depend on the processing

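With 1 library a condition no replicate could be left out. No paired analysis was possible because no condition has a replicate. The ratios of bipotent or medullary to cTEC-like cells kept direction and side of the limit in all 32 cases with edgeR's TMM scaling, finer clusters, means over cells and without high doublet scores, in 31 with at most 5% mitochondrial UMIs and in 24 without integration. Without integration the 7 ratios of Krt8 and Krt18 not called before passed the limit, and 1 ratio called before did not. Of the 72 ratios between libraries, 72 did so with finer clusters, 71 with TMM, 67 without high doublet scores, 59 without integration, 58 with means over cells and 53 at 5% mitochondrial UMIs. With a limit of 2-fold, 1, 1 and 1 ratios were called for Tbx1neo2/neo2 carrier against WT, minoxidil and PGE.2, in place of 7, 7 and 6, so that nearly all calls lie between the limits. For minoxidil, 2 were called at 5% mitochondrial UMIs and 2 without the 5 richest cells, an alternative chosen after seeing the data. The Krt15 ratio in cTEC-like cells reversed at 5% mitochondrial UMIs, to -0.59 for Tbx1neo2/neo2 carrier against WT and 0.38 for minoxidil, and the former also without the 5 richest cells (-0.24). Fewer cells enter both alternatives. The share of bipotent or medullary TEC-like cells with Krt5 and Krt8 depends on depth and on the UMIs asked for: it was 95.4%, 92.4% and 96.4% without thinning in the WT carrier, Tbx1neo2/neo2 carrier and PGE.2 libraries, 84.6%, 78.2% and 83.3% with at least 2 UMIs of each, and 93.6% in the WT carrier library thinned to 10000 UMIs. Keratin levels moved by more than their counting interval in 23 of 24 cases at 5% mitochondrial UMIs and in 20 with means over cells. They did so in 16 without integration, in 11 without high doublet scores and in 7 with finer clusters.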
